A study of Mus musculus with 2 samples.

Results

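The genes described here are 10 imprinted genes with known roles in growth, *Nnat*, *H19*, *Meg3*, *Dlk1*, *Peg3*, *Ndn*, *Plagl1*, *Grb10*, *Mest* and *Impact*, chosen by symbol from the 32285 genes in the count tables of a single-cell RNA-seq study of the mouse lens. All 10 were found. *Cdkn1c*, an imprinted cell-cycle inhibitor, is not a member and is given only for reference. The cells came from wild-type C57BL/6N pups at postnatal day 2 (P2), with no treatment. The tissue aimed at was the lens epithelium, taken on its capsule from dissected lenses after removal of neighboring eye tissue, including the tunica vasculosa, the vessel net around the young lens. Each of the 2 replicates was a pool of 4 to 8 pups and gave 1 library (n = 2 pools throughout). The libraries also held vessel cells, whose origin was not measured.

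An imprinted gene is transcribed mainly from the copy inherited from 1 parent, because the DNA of its control region carries different methylation in sperm and egg. Many imprinted genes act on fetal and early postnatal growth, and as a broad rule paternally expressed ones (*Dlk1*, *Mest*, *Peg3*) promote it and maternally expressed ones (*H19*, *Grb10*, *Cdkn1c*) restrain it. In the lens, epithelial cells divide, leave the cell cycle and elongate into fiber cells that fill with crystallins. The counts do not separate the parental copies, so allele-specific expression was not measured.

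The libraries of pool 1 and pool 2 held 12314 and 9425 barcodes with 93839132 and 86033032 UMIs, the molecular tags by which distinct transcripts are counted. After limits on genes, UMIs and mitochondrial share and removal of likely doublets, 10658 and 7836 cells remained. Cells were placed in a class if they had at least 3 markers of that class and at most 1 of each other class. This gave 268 and 181 endothelial cells (blood vessel lining, median 2807 and 3063 UMIs), 70 and 85 mural cells (pericyte-type cells around small vessels, 3125 and 3119 UMIs) and 9288 and 6756 lens cells (6322 and 8198 UMIs). None of the 10 genes is in a marker list. All 10 markers of their own list were detected in endothelial and in mural cells, and all 8 in lens cells. In mural cells 6 of 10 endothelial markers were detected, summing to 325 and 358 CPM (UMIs of a gene scaled to a common total of UMIs in the class), with *Cldn5*, *Cdh5*, *Pecam1* and *Ctla2a* at 0. In endothelial cells 6 of 10 mural markers were detected, summing to 31.1 and 35.1 CPM, with *Pdgfrb*, *Kcnj8*, *Cspg4* and *Ndufa4l2* at 0. The limit of 1 marker of another class in part sets these values. The lens list summed to 515 and 504 CPM in endothelial cells and 86.9 and 59.7 CPM in mural cells. The retinal neuron list summed to 12.7 and 28.1 CPM in endothelial cells and 4.57 and 0 CPM in mural cells. The erythroid list summed to 0 and 5.61 CPM in endothelial cells and was at 0 in mural cells. The pigment cell and cornea lists were at 0 in both vessel classes. The fibroblast list summed to 635 and 732 CPM in mural cells, 5.84 and 4.21 CPM in endothelial cells and 96.7 and 104 CPM in lens cells, while its members *Dcn*, *Lum* and *Pdgfra* were at 0 in mural cells. The part of other cell types in the mural levels was not tested. The pools shared 27 barcodes.

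Promoter windows from RefSeq (GRCm38.p6, 250 bases before to 50 after a start) matched 8 of the 10 genes, all but *H19* and *Impact*. Those of 4 genes with wide differences between classes, for *Meg3* the first of its 2 windows, are printed 5′ to 3′ on the gene's own strand, with each CG pair, the site of DNA methylation, in capitals. They lie at chr2:157559828-157560127 (+) for *Nnat*, chr12:109540746-109541045 (+) for *Meg3*, chr12:109452573-109452872 (+) for *Dlk1* and chr7:6730370-6730669 (−) for *Peg3*.
Nnat: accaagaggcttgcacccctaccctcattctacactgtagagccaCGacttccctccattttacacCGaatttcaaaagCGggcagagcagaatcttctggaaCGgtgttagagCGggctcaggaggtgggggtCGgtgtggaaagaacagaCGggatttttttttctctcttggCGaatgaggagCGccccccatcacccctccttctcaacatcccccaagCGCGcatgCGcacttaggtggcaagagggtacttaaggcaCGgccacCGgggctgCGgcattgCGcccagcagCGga
Meg3: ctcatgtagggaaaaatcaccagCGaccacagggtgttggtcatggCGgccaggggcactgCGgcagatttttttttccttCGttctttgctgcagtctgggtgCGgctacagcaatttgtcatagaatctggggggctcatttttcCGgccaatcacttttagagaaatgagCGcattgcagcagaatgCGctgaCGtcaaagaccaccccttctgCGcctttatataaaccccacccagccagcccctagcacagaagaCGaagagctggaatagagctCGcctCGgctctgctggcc
Dlk1: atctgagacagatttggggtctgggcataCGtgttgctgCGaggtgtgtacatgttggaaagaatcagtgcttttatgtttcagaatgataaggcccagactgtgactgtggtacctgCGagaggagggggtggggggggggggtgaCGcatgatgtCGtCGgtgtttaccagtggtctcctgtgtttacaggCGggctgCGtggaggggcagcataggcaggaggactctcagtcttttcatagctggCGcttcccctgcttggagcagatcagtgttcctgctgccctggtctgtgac
Peg3: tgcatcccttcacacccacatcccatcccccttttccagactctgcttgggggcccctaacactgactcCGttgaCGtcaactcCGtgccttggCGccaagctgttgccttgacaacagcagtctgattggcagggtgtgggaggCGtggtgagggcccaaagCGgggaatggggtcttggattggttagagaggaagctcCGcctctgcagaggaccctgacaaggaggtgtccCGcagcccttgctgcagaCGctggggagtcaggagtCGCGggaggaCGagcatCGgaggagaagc
The windows hold 17 CG pairs for *Nnat*, 13 for the first of *Meg3*, 9 for *Dlk1* and 13 for *Peg3*, against a median of 7 over 32851 windows. As many as 17 occur in 31.4% of all windows, 13 in 37.9% and 9 in 45.8%. The letters TATAAA, searched on both strands, are in this *Meg3* window and in 13.6% of all windows, and not in the other 3. The second *Meg3* window (chr12:109545148-109545447) holds 1 CG pair and no TATAAA. Methylation was not measured.

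*Meg3* and *Dlk1* marked the mural cells. They are neighbors on chromosome 12 (GRCm38, GENCODE vM21: *Dlk1* chr12:109452823-109463336 and *Meg3* chr12:109541001-109571726, both on the plus strand, 77.7 kb apart). *Meg3* is a maternally expressed long noncoding RNA, and *Dlk1* encodes a paternally expressed membrane protein related to Notch ligands that is known for holding back the differentiation of fat cell precursors. *Meg3* had 1934 and 1617 CPM in mural cells, against 0 and 0 in endothelial cells and 8.90 and 8.38 CPM in lens cells. No pool of another class came near the mural pools. The edgeR log2 fold change of mural over lens cells was 7.47 ± 0.17 (SE, adjusted p = 4.8e-12). *Meg3* passed the filter on low counts only through the mural cells, so this rise followed from the filter and its p-value adds no support. Against endothelial cells the level was at least 1021-fold higher in mural cells, taking the floor as 3 UMIs over both endothelial pools (1.72 CPM), and the lens level was above that floor by a factor of 5.02, so *Meg3* was at least 5.02-fold lower in endothelial than in lens cells. When each cell was thinned to 1500 UMIs, *Meg3* was detected in 83.6% of 67 and 79.7% of 79 mural cells (95% exact binomial intervals 72.5 to 91.5% and 69.2 to 88.0%). It was found in 0 of 225 and 0 of 166 endothelial cells, which allows shares of cells with a UMI of up to 1.33% and 1.81% (3 cells of the total), and in 0.690% and 0.637% of lens cells. Intervals and floors cover counting error only. Without thinning, 139 of 155 mural cells and 443 of 16044 lens cells had a *Meg3* UMI.

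*Dlk1* had 54.9 and 41.1 CPM in mural cells (12 and 11 UMIs), 0 and 0 in endothelial cells, and 1 UMI in all 16044 lens cells. Its mural level was at least 27.4-fold higher than in endothelial cells by the same floor, and 5975 times the lens level with a 95% counting interval of 970 to 246137, which is wide because of that single lens UMI. At 1500 UMIs per cell *Dlk1* was detected in 3 of 67 and 3 of 79 mural cells, or 4.48% and 3.80%. Further noncoding RNAs that follow *Meg3* on the same strand had the same pattern of classes. *Rian*, which starts 32.2 kb beyond *Meg3* and hosts small nucleolar RNAs, had 238 and 153 CPM in mural cells, 0 and 0 in endothelial cells and 0.93 and 0.72 CPM in lens cells (mural over lens 7.66 ± 0.30 log2, adjusted p = 6.6e-10). *Rian* too passed the filter on low counts only through the mural cells, so its p-value adds no support. *Mirg*, a microRNA host, had 5 and 3 UMIs in mural cells, none in endothelial cells and 1 and 1 in lens cells. These 4 genes of the cluster were thus highest in mural cells and at 0 in endothelial cells. *Rtl1*, a protein-coding gene of the same cluster, had 0 UMIs in endothelial and mural cells and 2 in lens cells.

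**Figure D1:**
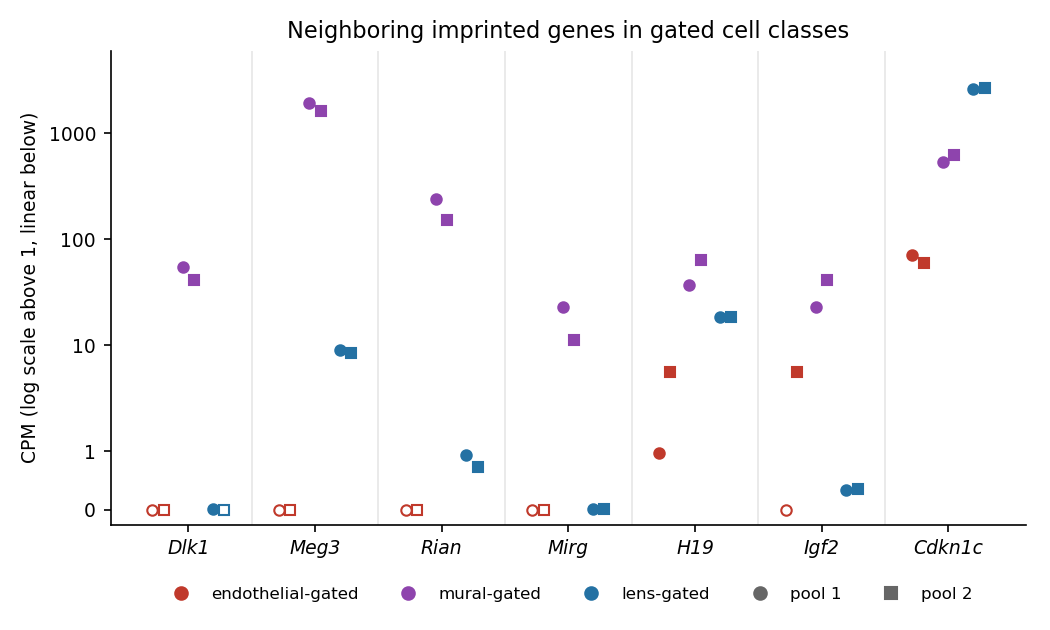
Levels in CPM (vertical axis, logarithmic above 1 and linear below) of neighboring imprinted genes on chromosome 12 (*Dlk1*, *Meg3*, *Rian*, *Mirg*) and chromosome 7 (*H19*, *Igf2*, *Cdkn1c*) in endothelial, mural and lens cells, 1 point per pool and open points at 0. The chromosome 12 genes are at 0 in both endothelial pools, and the mural points of *Meg3* stand at 1934 and 1617 CPM.

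In lens cells, the little *Meg3* there was lay in few cells. Of 594 and 500 *Meg3* UMIs, 225 and 262 were in 29 and 20 cells that held 5 or more each, up to 27 and 39 in 1 cell, while 9259 and 6736 lens cells had fewer than 5. The cells with 5 or more carried *Rian* at 47.7 and 100.2 CPM, against 0.71 and 0.30 CPM in the other lens cells. *Dlk1*, which is in no gate list, was at 0 in them; the lens gate had already removed cells with more than 1 mural marker, so mural RNA in them was not tested. Of these cells, 20 of 29 and 12 of 20 were in bin 5 of lens cells by fiber gene share, and their median UMIs were 11816 and 12614. The cells were picked by *Meg3*, so its own level in them is no finding.

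*H19*, a maternally expressed noncoding RNA that shares a control region with *Igf2* (chr7:142575529-142578143, minus strand, 72.6 kb from *Igf2*), was also highest in mural cells, on few counts. It had 36.6 and 63.5 CPM in mural cells (8 and 17 UMIs), 0.97 and 5.61 CPM in endothelial cells (1 and 4 UMIs) and 18.3 and 18.5 CPM in lens cells. Both mural pools were above both lens pools, and both endothelial pools were below them. The log2 fold change was 1.26 ± 0.38 for mural over lens cells (adjusted p = 0.017), 4.17 ± 0.64 for mural over endothelial cells (adjusted p = 0.00025) and -2.91 ± 0.51 for endothelial over lens cells (adjusted p = 0.00026). The mural excess over lens was fragile: 1 mural cell of pool 2 held 9 of its 17 UMIs, and without the top cell of each pool the mural levels were 23.0 and 30.2 CPM. It also missed the threshold with DESeq2 (adjusted p = 0.075), and pool 1 alone gave 0.75 and pool 2 alone 1.54. For endothelial over lens cells, pool 1 alone gave -3.48 and pool 2 alone -1.78. Such values from a single pool are log2 ratios of scaled CPM with 1 CPM added, which shrinks them at low counts. They are not edgeR fold changes. *Igf2*, the fetal growth factor of this locus, had 22.9 and 41.1 CPM in mural cells (5 and 11 UMIs), 0 and 5.61 CPM in endothelial cells and 0.33 and 0.35 CPM in lens cells (mural over lens 6.32 ± 0.74 log2, adjusted p = 1.2e-05). *Igf2* passed the filter on low counts only through the mural cells, so its p-value adds no support. *Cdkn1c*, 792 kb further on, was highest in lens cells, with 530 and 627 CPM in mural cells, 71.0 and 58.9 CPM in endothelial cells and 2634 and 2673 CPM in lens cells.

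*Nnat* and *Peg3* were higher over all lens cells than in either vessel class. *Nnat* (chr2:157560078-157562522, plus strand, within the span of *Blcap* on the other strand) encodes neuronatin, a small membrane protein of the endoplasmic reticulum linked to calcium handling, and is paternally expressed. It had 9.73 and 4.21 CPM in endothelial cells (10 and 3 UMIs) and 18.3 and 7.47 CPM in mural cells (4 and 2 UMIs), against 153 and 134 CPM in lens cells. Both vessel classes lay below both lens pools, with log2 fold changes of -4.53 ± 0.23 for endothelial over lens (adjusted p = 1.1e-09) and -3.73 ± 0.33 for mural over lens (adjusted p = 8.4e-07). *Nnat* passed the filter on low counts only through the lens cells, so these falls followed from the filter and their p-values add no support. Under a gate by the leading marker list, which kept more mural cells, the mural over lens value was -2.59 (adjusted p = 0.00012). Free lens RNA, scaled by the *Cryaa* found in vessel cells, would give 4.51 and 3.78 CPM of *Nnat* in endothelial cells; whether the rest was expressed there was not tested. With that amount subtracted, the fold changes of the first gate became -5.91 and -4.33. *Peg3* (chr7:6703892-6730431, minus strand), a paternally expressed zinc finger protein, had 32.1 and 33.7 CPM in endothelial cells and 54.9 and 41.1 CPM in mural cells, against 528 and 471 CPM in lens cells. Its log2 fold changes were -4.18 ± 0.17 (adjusted p = 1.3e-10) and -3.60 ± 0.21 (adjusted p = 9.9e-09), or -5.00 and -4.13 with free lens RNA subtracted. At 1500 UMIs per cell, *Peg3* was detected in 5.33% and 5.42% of endothelial cells, 8.96% and 7.59% of mural cells and 52.1% and 48.9% of lens cells. *Nnat* was detected in 2.67% and 0% of endothelial, 2.99% and 2.53% of mural and 9.42% and 8.91% of lens cells. Both genes were lens-rich in level over all lens cells, but *Nnat* was detected in far fewer lens cells than *Peg3*. In the lens cells lowest in fiber gene share (bin 1, described below) *Nnat* had 7.71 and 7.53 CPM, near its levels in the vessel classes. *Peg3* had 796 and 673 CPM there, and 225 and 239.7 CPM in bin 5.

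*Mest* and *Ndn* were lower in endothelial cells than in mural cells and than over all lens cells. *Mest* (chr6:30723547-30748465, plus strand) encodes a paternally expressed enzyme of the alpha/beta hydrolase family and is known to promote growth in the mouse. It had 87.6 and 74.3 CPM in endothelial cells and 256 and 213 CPM in mural cells. Over all lens cells it had 353 and 326 CPM, and no 2 classes overlapped in these sums. The log2 fold changes were -2.31 ± 0.15 for endothelial over lens (adjusted p = 1.5e-08), -0.75 ± 0.15 for mural over lens (adjusted p = 0.0017) and 1.56 ± 0.18 for mural over endothelial cells (adjusted p = 2.4e-05). In the lens cells highest in fiber gene share (bin 5, described below) *Mest* had 54.7 and 39.3 CPM, below both endothelial pools. In resting lens cells (also described below) it had 275.5 and 238 CPM, which overlapped the mural pools. The order of the classes for *Mest* thus depended on which lens cells were summed. *Ndn* (chr7:62346569-62350262, plus strand), or necdin, is a paternally expressed protein best known from postmitotic neurons, where it restrains the cell cycle. It had 41.8 and 43.5 CPM in endothelial cells, 119 and 78.4 CPM in mural cells and 120.3 and 110 CPM in lens cells. It was lower in endothelial than in lens cells (-1.69 ± 0.18, adjusted p = 2.8e-06) and higher in mural than in endothelial cells (1.24 ± 0.27, adjusted p = 0.0034), while mural and lens cells overlapped (-0.45 ± 0.21, adjusted p = 0.11).

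*Grb10* was higher in both vessel classes than in the lens. It encodes an adaptor that binds the insulin and IGF1 receptors and damps their signal (chr11:11930508-12038683, minus strand), and is maternally expressed in most mouse tissues. *Grb10* had 131 and 139 CPM in endothelial cells and 110 and 78.4 CPM in mural cells, against 44.2 and 41.7 CPM in lens cells. Both vessel classes lay above both lens pools. The log2 fold change was 1.41 ± 0.15 for endothelial over lens (adjusted p = 2.7e-06) and 0.91 ± 0.24 for mural over lens cells (adjusted p = 0.0076). Mural and endothelial cells did not pass the test against each other (-0.50 ± 0.23, adjusted p = 0.14). At 1500 UMIs per cell, 19.6% and 16.9% of endothelial, 17.9% and 16.5% of mural and 6.97% and 6.90% of lens cells had a *Grb10* UMI.

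*Impact* and *Plagl1* showed few differences between classes. *Impact*, an inhibitor of the amino acid sensor Gcn2 that is paternally expressed in the mouse, had 23.4 and 12.6 CPM in endothelial cells, 27.4 and 29.9 CPM in mural cells and 31.9 and 26.1 CPM in lens cells. It was lower in endothelial than in lens cells (-0.90 ± 0.26, adjusted p = 0.0086), but not with DESeq2 (adjusted p = 0.060), and no call was made for mural over lens (-0.20 ± 0.38, adjusted p = 0.71) or mural over endothelial cells (0.69 ± 0.46, adjusted p = 0.32). *Plagl1* (chr10:13060504-13131694, plus strand), a paternally expressed zinc finger transcription factor that acts on other imprinted genes, had 0.97 and 2.81 CPM in endothelial cells, 4.57 and 7.47 CPM in mural cells and 3.58 and 4.84 CPM in lens cells. Its level was low in lens cells as well as in vessel cells, so it fell below the filter on low counts. With 3 UMIs in each vessel class, its ratio to lens cells was 0.41 in endothelial cells (95% counting interval 0.08 to 1.21) and 1.48 in mural cells (0.30 to 4.34). A difference was not detectable at this depth.

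**Figure D2:**
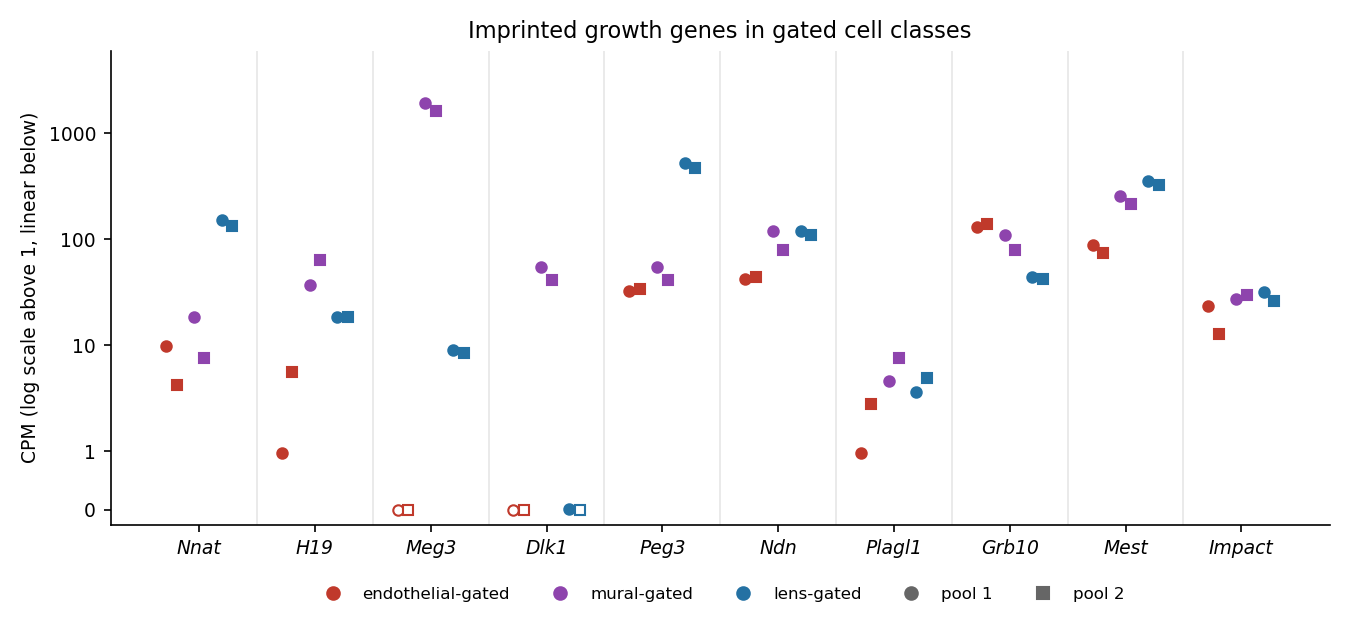
Levels in CPM (vertical axis, logarithmic above 1 and linear below) of the 10 genes in endothelial, mural and lens cells, 1 point per pool and open points at 0. *Meg3* and *Dlk1* stand out in mural cells, *Nnat* and *Peg3* in lens cells and *Grb10* in both vessel classes.

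Of the 10 genes, 9 passed the filter on low counts in these comparisons. For endothelial over lens cells, 1 rose and 7 fell, where 29.7% of 9320 genes tested were higher and 29.9% lower. For mural over lens cells, 4 rose, *Dlk1* among them, and 3 fell, where 21.6% of all genes were higher and 20.0% lower. For mural over endothelial cells, 5 rose (*Meg3*, *Dlk1*, *H19*, *Mest* and *Ndn*) and 0 fell, where 14.1% of all genes were higher and 12.4% lower; for the 4 without a call, unadjusted p was between 0.053 and 0.29, and DESeq2 also called no fall. *Dlk1* and *Meg3* passed the filter on low counts only through the mural cells, where they are high. Their rises in both mural comparisons thus followed from the filter. The other members that rose were *H19* and *Grb10* over lens cells and *H19*, *Mest* and *Ndn* over endothelial cells. *Nnat* passed only through the lens cells, where it is high, so its falls against lens cells followed in the same way. With such shares of all genes called, a call alone says little of a gene. The 3 comparisons share sums of the same cells. On library totals without TMM, 62.7% of called genes were higher in endothelial than in lens cells, against 49.8% with TMM, and 62.3% in mural than in lens cells, against 52.0%; the median of all genes was 0.19 and 0.13 there. With classes set by the leading marker list, a gate added after the data were seen that kept 169 and 214 mural cells, *Nnat* (2.07), *Peg3* (0.74) and *Grb10* (-0.59) also passed for mural over endothelial cells, *Ndn* passed for mural over lens cells (-0.57) and *H19* did not (0.65, adjusted p = 0.054). *Esam*, *Emcn* and *Flt1*, all on the endothelial list, were found in 33.1 to 62.6% of the mural cells of that gate.

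Within the lens, the genes were then followed along the share of fiber gene transcripts. Lens cells of each pool were put into 5 equal bins by the share of their UMIs from 18 fiber genes (beta and gamma crystallins, *Mip*, *Lim2*, *Bfsp1*, *Bfsp2* and *Grifin*). This is a range of a score and not a cell type, and cells near a border are alike: bin 5 began at 3.64% and 3.59% and reached up to 51.3% and 45.9%. Bin 5 had a median of 9942 and 11758 UMIs and 24.9% and 22.6% crystallin UMIs, against a median of 6371 and 8396 UMIs in bin 1, and crystallins made up 9.12% and 8.99% in bin 4. None of the 10 genes is in the list. Over 13000 genes, 34.2% were higher and 35.0% lower in bin 5 than in bin 1; of 9 members tested, all but *Dlk1*, 4 were higher and 4 lower.

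*Nnat* climbed most among the 9 members tested. From the lowest to the highest bin it had 7.71, 17.8, 22.5, 51.4 and 471 CPM in pool 1, and 7.53, 14.1, 21.0, 64.1 and 432 CPM in pool 2. Bin 5 over bin 1, the log2 fold change was 6.41 ± 0.09 (adjusted p = 6e-30). With every cell at 3000 UMIs, 48.6% and 47.7% of cells in bin 5 had *Nnat*, against 2.02% and 2.02% in bin 1. Most *Nnat* transcripts sat in few cells: 735 and 554 lens cells with 5 or more UMIs held 80.0% and 80.2% of them. Within bin 5, *Nnat* had 240.1, 575, 630 and 379 CPM from the lowest to the highest of 4 sub-bins in pool 1, and 222, 518, 574 and 367 CPM in pool 2, so it was highest in sub-bin 3, at fiber shares of 7.63 to 13.4% and 7.60 to 11.8%. *Cdkn1c* had 4343, 8492, 8347 and 5823 CPM over the same sub-bins in pool 1. Counted without crystallins, *Nnat* was still highest in sub-bin 3, at 839.7 and 746 CPM, against 596 and 548 CPM in sub-bin 4.

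*H19* and *Meg3* also ended higher. *H19* had 29.6 and 32.1 CPM in bin 5, against 14.3 and 17.7 CPM in bin 1, and lay between 10.5 and 17.7 CPM in the 4 lower bins of both pools (1.47 ± 0.10, adjusted p = 5.7e-14). *Meg3* had 6.20, 2.85, 4.38, 4.36 and 19.9 CPM in pool 1 and 2.62, 11.1, 6.26, 2.81 and 15.7 CPM in pool 2 (2.52 ± 0.28, adjusted p = 3.2e-09). In bin 2 of pool 2, 0.299% of cells had 5 or more *Meg3* UMIs at a depth of 3000. *Ndn* stayed near its level, with 118, 126, 122, 129.6 and 112 CPM in pool 1 and 108, 114, 114, 118 and 100.3 CPM in pool 2. Its call as higher (0.44 ± 0.05, adjusted p = 3.3e-09) rests on TMM scaling; on library totals alone it was -0.083 (adjusted p = 0.10). On that scale the median of all genes was -0.54, and 16.1% of called genes were higher, against 49.4% with TMM.

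*Mest*, *Peg3*, *Grb10* and *Plagl1* were lower in the fiber-rich cells. *Mest* had 516, 498, 456, 416 and 54.7 CPM over the bins of pool 1 and 494, 463, 427, 323 and 39.3 CPM in pool 2 (-2.91 ± 0.07, adjusted p = 1e-24). Much of that drop lay inside bin 5, where *Mest* had 240.1, 38.7, 15.1 and 10.6 CPM by sub-bin in pool 1 and 148, 26.7, 10.5 and 11.2 CPM in pool 2. *Nnat* and *Mest* thus changed in opposite directions between sub-bins 1 and 3. *Peg3* declined over all bins, with 796, 647, 603, 538 and 225 CPM in pool 1 and 673, 549, 513, 467 and 239.7 CPM in pool 2 (-1.14 ± 0.05, adjusted p = 3.1e-19), and was still detected in 46.5% and 50.2% of cells of bin 5 at 3000 UMIs, against 84.9% and 82.2% in bin 1. *Grb10* had 16.8 and 16.5 CPM in bin 5, against 57.4 and 53.7 CPM in bin 1 (-1.22 ± 0.08, adjusted p = 4.7e-14). *Plagl1* had 0.94 and 1.13 CPM (18 and 18 UMIs), against 6.68 and 6.94 CPM (84 and 82 UMIs), a log2 fold change of -2.19 ± 0.24 (adjusted p = 2.7e-09). *Impact* had 24.1 and 23.2 CPM in bin 5, against 35.2 and 29.2 CPM in bin 1, and did not pass the test (0.07 ± 0.08, adjusted p = 0.47), while on library totals alone it was -0.45. With the crystallins left out of the fiber list, the bins gave smaller changes for *Nnat* (3.96), *Mest* (-1.08), *Peg3* (-0.42) and *Plagl1* (-1.07), all still called.

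**Figure D3:**
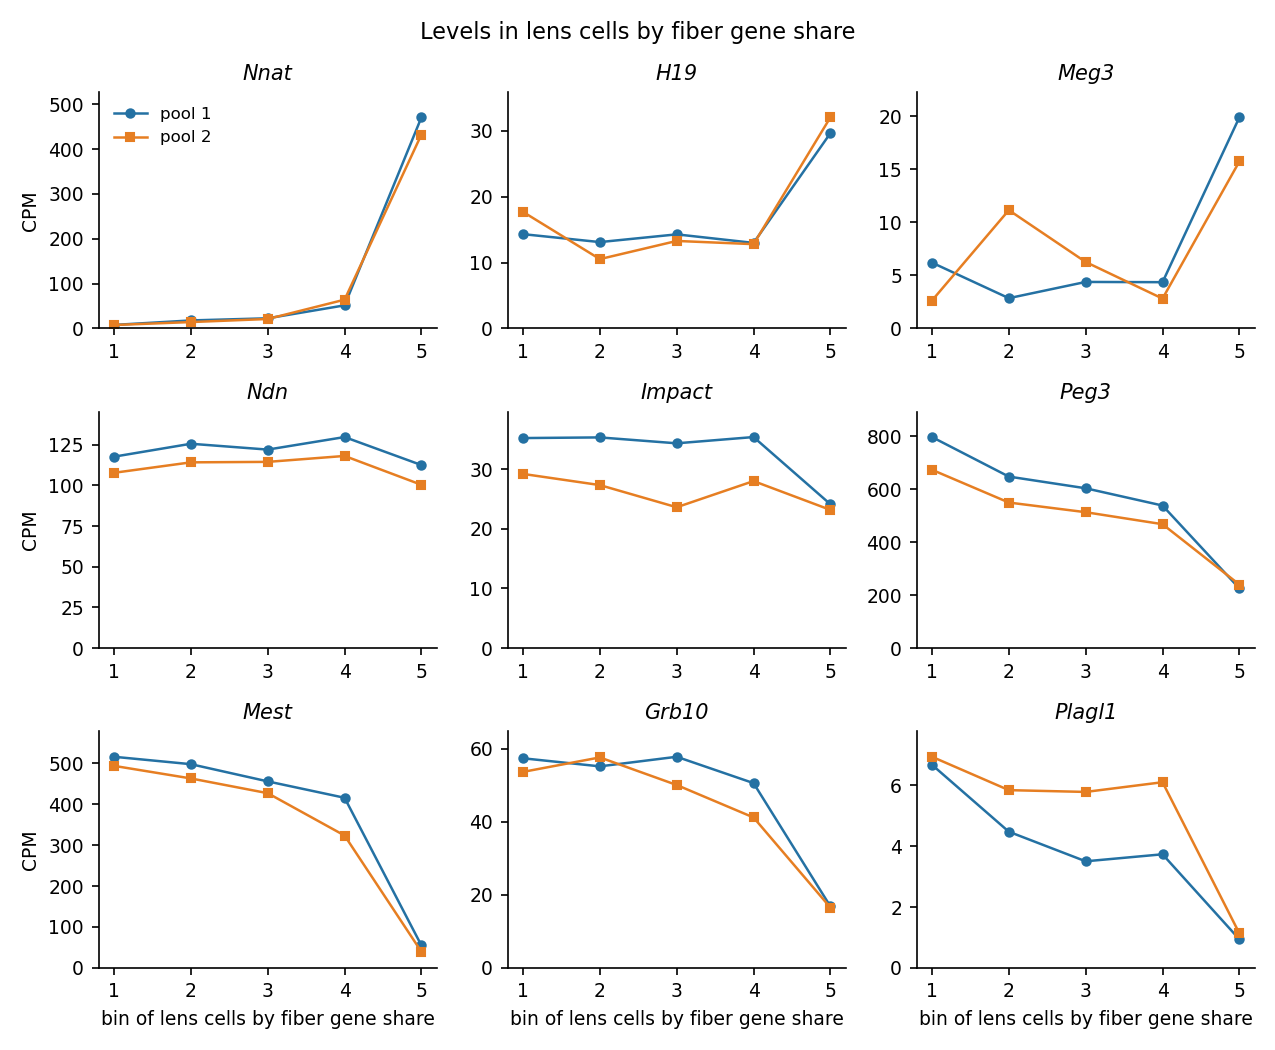
Level in CPM (vertical axes, each from 0) of 9 genes in lens cells by bin of fiber gene share, from lowest (1) to highest (5), 1 line per pool. *Nnat* is at 471 and 432 CPM in bin 5 and *Mest* at 54.7 and 39.3 CPM, and for both the widest step lies between bin 4 and bin 5.

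The last comparison asked how the genes differ between dividing and resting lens cells. Cycling cells had at least 3 of 12 cell-cycle genes at 3000 UMIs (1970 and 1802 cells), and resting cells had none (5932 and 3917 cells). *Mki67*, one of the genes of the gate, had 405 and 363 CPM in cycling cells and 1.89 and 2.24 CPM in resting cells. Over 13657 genes, 31.2% were higher and 30.6% lower in cycling cells, and of 9 members tested, again without *Dlk1*, 3 were higher and 4 lower. On library totals without TMM, 65.8% of called genes were higher in cycling cells, against 50.5% with TMM, with a median of 0.12 over all genes. *Mest* had 519 and 465 CPM in cycling cells, against 275.5 and 238 CPM in resting cells (0.80 ± 0.03, adjusted p = 3.9e-14). *Plagl1* had 6.78 and 7.21 CPM, against 2.28 and 3.80 CPM (1.08 ± 0.16, adjusted p = 1.3e-05), and *Grb10* 55.7 and 53.3 CPM, against 38.6 and 34.8 CPM (0.44 ± 0.04, adjusted p = 5.5e-08). For *Plagl1*, pool 1 alone gave 1.13 and pool 2 alone 0.67, as ratios with 1 CPM added. All 3 were thus higher in both cycling pools than in both resting pools.

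*Nnat* had 11.0 and 12.8 CPM in cycling cells, against 217 and 207 CPM in resting cells (-4.28 ± 0.06, adjusted p = 1.2e-19). *Meg3* had 5.10 and 4.59 CPM, against 10.7 and 10.4 CPM (-1.26 ± 0.11, adjusted p = 2e-08). *Impact* had 24.2 and 19.5 CPM, against 33.4 and 29.1 CPM (-0.66 ± 0.07, adjusted p = 1.8e-07). These 3 were below the resting pools in both cycling pools, as was *H19*, with 16.3 and 17.0 CPM in cycling cells, against 19.6 and 19.7 CPM in resting cells (-0.38 ± 0.09, adjusted p = 0.0013, but 0.091 with DESeq2). *Peg3* (0.05 ± 0.02, adjusted p = 0.11) and *Ndn* (-0.09 ± 0.04, adjusted p = 0.061) were not called. *Cdkn1c* had 448 and 420 CPM in cycling cells, against 3589 and 4040 CPM in resting cells.

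The 2 axes overlap: 11 of 1857 and 12 of 1351 cells of fiber bin 5 were cycling, against 773 of 1858 and 690 of 1352 in bin 1. A pair of comparisons added after seeing the data held 1 axis in part fixed. Among resting cells alone, bin 5 over bin 1 gave 6.63 for *Nnat*, 1.95 for *H19*, 2.79 for *Meg3* and -3.04 for *Mest*. Over all lens cells these were 6.41, 1.47, 2.52 and -2.91. *Impact* passed as lower among resting cells (-0.37, adjusted p = 0.0013). Among lens cells of the lower 3 bins, cycling over resting gave -0.59 for *Nnat* (adjusted p = 0.00031) in place of -4.28, and 0.20 for *Mest* (adjusted p = 2.2e-05) in place of 0.80. *Impact* (-0.74) and *Plagl1* (0.68) kept their calls. *H19* turned to 0.56 (adjusted p = 0.00034), *Peg3* was lower at -0.32 (adjusted p = 6.3e-09), and *Grb10* (0.06) and *Meg3* (-0.20) were no longer called. In this set the direction of *H19* is thus the opposite of that over all lens cells.

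**Figure D4:**
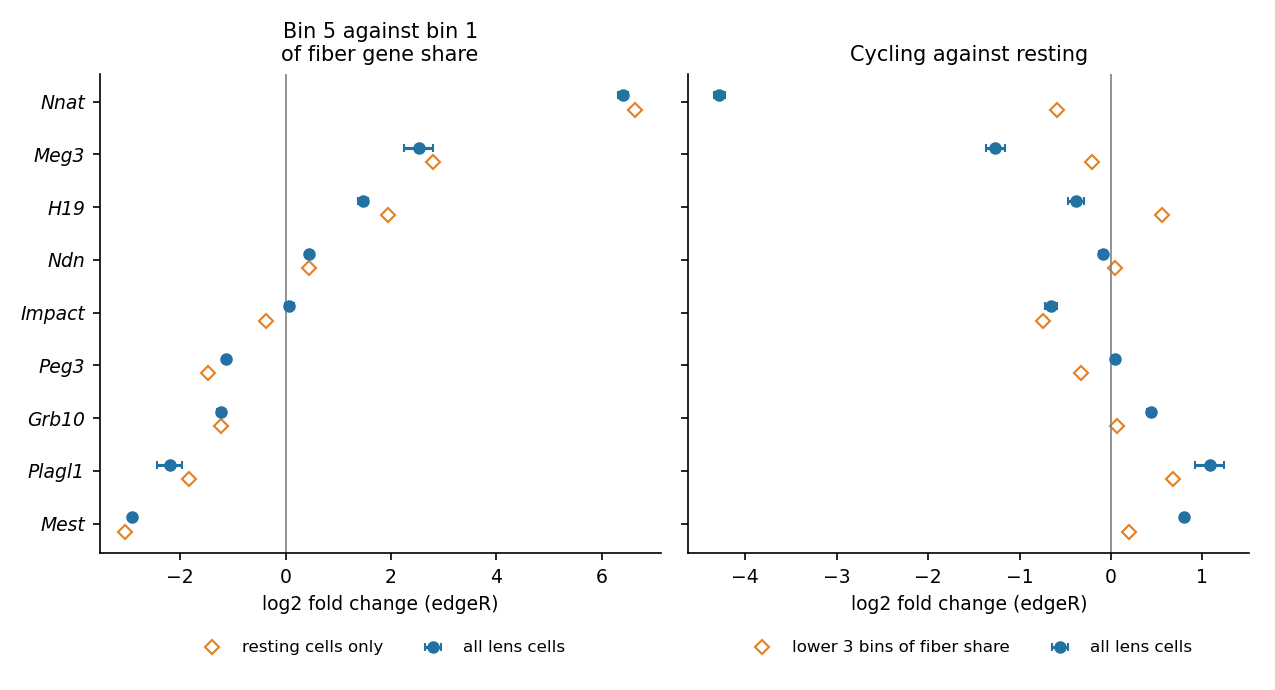
Log2 fold changes (horizontal axes) of 9 genes in lens cells, on the left bin 5 over bin 1 of fiber gene share and on the right cycling over resting cells; filled points with SE are all lens cells, open diamonds are resting cells only (left) or the lower 3 bins only (right). *Nnat* keeps its change on the left (6.41 and 6.63) and loses most of it on the right (-4.28 and -0.59).

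Over the 6 class sums and 10 fiber sums, which share libraries and crystallin content, the genes did not follow 1 pattern. Pearson's r of log2(CPM + 1), given as a description over 16 sums, was 0.92 for *Meg3* and *Dlk1*, 0.80 for *Peg3* and *Ndn*, -0.38 for *Nnat* and *Mest* and -0.85 for *Nnat* and *Grb10*. Among 8785 genes, those most like *Nnat* were *Chrng* (0.977), *Abca4* (0.975) and *Crygn* (0.975), and most like *Peg3* were *Col4a4* (0.996), *Pcdh7* (0.995) and *Sipa1l3* (0.994). *Meg3* was most like *Dact1* (0.984), *Ctsc* (0.983) and *Cdh6* (0.977), and *H19* most like *Dkk3* (0.951), *Wipi1* (0.943) and *Gpm6b* (0.912). *Grb10* went with *St3gal5*, *Nr4a1* and *Rrbp1* (0.982 to 0.985), *Ndn* with *Ptov1*, *Adam22* and *Grina* (0.978 to 0.988), *Mest* with *Btg1*, *mt-Nd3* and *Hmgn1* (0.973 to 0.975) and *Impact* with *Asna1*, *Stx18* and *Faf2* (0.913 to 0.931). For *Dlk1*, *Slc38a11*, *Ptger2* and *Fabp7* came first, and *Dlk1* itself rests there on 23 mural UMIs and 1 lens UMI.

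A list of 40 other imprinted genes was read the same way. Of all genes tested, 29.7% were higher and 29.9% lower for endothelial over lens cells. These shares were 14.1% and 12.4% for mural over endothelial cells and 21.6% and 20.0% for mural over lens cells. They were 34.2% and 35.0% for the highest against the lowest fiber bin and 31.2% and 30.6% for cycling against resting cells. For endothelial over lens cells, 3 of 22 tested were higher and 14 lower (median -1.03, against -0.05 over all genes), with *Slc38a4*, an amino acid transporter, at 1.95 and 0 CPM in endothelial cells and 74.6 and 78.1 CPM in lens cells, and *Asb4* at 13.6 and 29.5 CPM in endothelial cells and 0.12 and 0.22 CPM in lens cells (6.69 ± 0.46, adjusted p = 6.2e-08). For mural over endothelial cells, 9 of 22 were higher and 1 lower (median 0.80, against -0.06), among them *Snrpn*, a splicing protein gene (2.49 ± 0.29), and *Igf2r*, which clears IGF2 from the cell surface, with 206 and 209 CPM in mural and 45.7 and 60.3 CPM in endothelial cells (2.02 ± 0.22). For mural over lens cells the counts were 7 higher and 6 lower of 22 (median -0.08, against -0.07), with *Begain* at 32.0 and 37.3 CPM in mural cells (5.91 ± 0.59). *Rian*, *Begain* and *Igf2* passed the filter on low counts in these class comparisons only through the mural cells, where they are high. *Asb4* passed only through the endothelial cells and *Slc38a4* only through the lens cells. The filter thus in part set these counts and medians. In the highest against the lowest fiber bin, 16 of 27 were higher and 7 lower (median 0.51, against -0.02), with *Cdkn1c* at 4.71 ± 0.07, *Rian* at 2.95 ± 0.57, *Peg13* at 2.19 ± 0.16 and *Blcap*, whose span holds *Nnat*, at 1.36 ± 0.11. Over all lens cells *Rian* had only 0.93 and 0.72 CPM. In cycling against resting cells, 5 of 29 were higher and 13 lower (median -0.12, against -0.01).

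*Grb10* acts on the insulin and IGF1 receptors, so 20 genes of that pathway were also read. The shares of all genes called in each comparison are those given for the list of imprinted genes. For endothelial over lens cells, 8 of 17 tested were higher and 6 lower (median 0.54, against -0.05). Among the IGF-binding proteins, *Igfbp3* had 63.3 and 199 CPM in endothelial cells, against 0.27 and 0.42 CPM in lens cells (8.22 ± 0.31). *Igfbp4* had 585 and 506 CPM, against 13.5 and 11.3 CPM (5.22 ± 0.18), and *Igfbp5* 5.84 and 2.81 CPM, against 293 and 198 CPM (-6.03 ± 0.26). The insulin receptor *Insr*, a target of *Grb10*, had 202 and 241 CPM in endothelial cells, 9.14 and 26.1 CPM in mural cells and 16.4 and 17.2 CPM in lens cells (endothelial over lens 3.47 ± 0.16). *Grb14*, a related adaptor, had 14.6 and 14.0 CPM in endothelial cells, 73.1 and 14.9 CPM in mural cells and 0.21 and 0.15 CPM in lens cells. The receptor substrate *Irs2* had 0.97 and 0 CPM in endothelial cells, 54.9 and 59.7 CPM in mural cells and 31.3 and 28.6 CPM in lens cells. For mural over lens cells, 9 of 17 were higher and 3 lower (median 0.74, against -0.07), and for mural over endothelial cells 8 were higher and 3 lower (median 0.54, against -0.06). In the class comparisons *Igfbp3* passed the filter on low counts only through the endothelial cells, *Igfbp5* only through lens cells and *Igf2* only through mural cells. The filter thus in part set these counts too. In the highest against the lowest fiber bin, 5 of 16 were higher and 9 lower (median -0.25, against -0.02), with *Igfbp5* at -3.64 ± 0.05, *Igfbp2* at -3.31 ± 0.43, *Foxo1*, a transcription factor held back by insulin signaling, at -2.14 ± 0.09, *Irs2* at -2.14 ± 0.08 and *Irs1* at 2.04 ± 0.11. Over all lens cells *Igfbp2* had only 1.96 and 1.61 CPM. In cycling against resting cells, 5 of 16 were higher and 6 lower (median -0.08, against -0.01), where 31.2% of all genes were higher and 30.6% lower.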

How the data were processed

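Single-cell RNA-seq counts of 2 pools of lens epithelium were used. The authors made 10x Genomics 3′ libraries and deposited filtered tables of raw UMI counts from Cell Ranger 6.1.1 (per the file headers) on mm10, whole numbers per gene and barcode. The members and gene lists were chosen with earlier results of these data known.

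Kept barcodes had 446 to 4261 genes and 949 to 20198 UMIs (percentiles 2 and 97 of the pools together) and at most 15% mitochondrial UMIs; the top 8% per pool by Scrublet score (scanpy 1.11.5) were then removed as likely doublets. Classes were gated by markers; macrophages were gated too and entered no test. UMIs were summed per pool and class, fiber bin or cycling state and tested in edgeR 4.0.16 (R 4.3.3): filter on low counts, TMM factors, the pool as a block because the sums of a pool come from 1 library, the two-sided quasi-likelihood test and Benjamini-Hochberg adjustment over all genes at 0.05. Cells are not replicates, and p-values measure only how differences vary between these 2 pools. CPM are not TMM-scaled, so ratios of CPM and fold changes can differ. Cells were thinned with a fixed seed to compare shares. SE is the size of the fold change as fitted without shrinkage, divided by the root of the F statistic. The printed fold changes are shrunk by edgeR, so the 2 can differ at low counts.

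All 10 genes are named. Of the other lists, the rule took up to 8 genes a comparison, those with the largest changes past the threshold at 20 CPM or more in a class, and the text names some of these; which ones was chosen after their values were seen. In simulated counts for endothelial over lens cells (9320 genes), edgeR recovered 69.1% of genes changed by 1 and 94.8% of those changed by 2 on the log2 scale, with 4 false calls among 8446. DESeq2 1.42.0 recovered 36.1% and 81.4%, with 0. The simulation gave all classes a shared mean profile and a common spread, with no pool effect and few changed genes, as many up as down. In the data 5557 genes were called, so these rates do not carry over to them. The alternatives kept doublets, set the limits pool by pool, or used DESeq2, no low-count filter, no block, no crystallins, other gates, free lens RNA subtracted, other bins and lists, and each pool left out. Added after seeing the data were the gate by leading list, library totals without TMM, resting cells only and the lower 3 fiber bins. Gene positions are from GENCODE vM21.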

Additional observations from a re-analysis of the deposited data

How the results depend on the processing

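Of the fold changes of members recomputed with a test, 460 kept their direction and their side of the threshold, 10 newly passed, 6 were lost and 8 changed sign. Library totals without TMM gave 0.0032 for *Impact* (mural over lens), -0.083 for *Ndn* and -0.45 for *Impact* (bin 5 over bin 1) and 0.048 for *Ndn* (cycling over resting). Resting cells alone gave -0.37 for *Impact* (bin 5 over bin 1), and the lower 3 bins gave 0.56 for *H19*, -0.32 for *Peg3* and 0.041 for *Ndn* (cycling over resting). The gate by leading list raised the members called for mural over endothelial cells to 8 from 5. DESeq2 called 4427 genes for cycling over resting cells, against 8437. The causes were not tested. Without the replicate block, 5732 genes were called there and 5662 for endothelial over lens cells, and every call on a member stayed. With 1000 UMIs per cell and with no thinning, the mean share of cells was 71.5% and 89.7% for *Meg3* in mural cells (81.7% at 1500), 2.73% and 11.3% for *Dlk1* in mural cells (4.14%), 7.20% and 20.8% for *Nnat* in lens cells (9.16%) and 37.9% and 91.3% for *Peg3* in lens cells (50.5%), as depth sets such shares. With each pool left out, which allows no test, no called change turned in sign. Of these fold changes of members, 41 stayed within the SE of the value from both pools, and 47 moved by at least that much. The values from a single pool are ratios with 1 CPM added and so are not the same measure. The mural sums hold 218740 and 267793 UMIs, so that genes near 10 CPM rest on a few UMIs there.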

Other observations

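The macrophage gate held 22 and 24 cells, which entered no comparison. *Meg3*, *Dlk1*, *Ndn* and *Grb10* were at 0 there in both pools (86739 and 99793 UMIs, so that 3 UMIs would be 34.6 and 30.1 CPM), and *Mest* had 1 UMI in each pool, 11.5 and 10.0 CPM. *Impact* had 7 and 2 UMIs, 80.7 and 20.0 CPM.

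*Six3*, a transcription factor of the lens marker list, was found in 71.8% and 72.4% of 337 and 217 endothelial cells under the gate by leading list, while *Pax6* was found in 2.97% and 3.69% and *Foxe3* in 0% and 0.461%. In mural cells under that gate *Six3* was found in 6.51% and 1.40%. The crystallin *Cryaa* had 1130 and 906 CPM in endothelial cells and 1097 and 1042 CPM in mural cells of the first gate.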
